A study of Mus musculus with 6 samples.

Results

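The 7 genes described here are the interleukin-17 axis genes Il17a, Il17f, Il23r, Il17re, Cd163l1, Rora and Il22, taken by symbol from the 32285 genes of the count matrices. All 7 were found, each under 1 symbol. They were followed across CD45+ leukocytes that had been sorted alive from MC38 tumours, a mouse colon carcinoma line grown under the skin, on day 25 after inoculation. The cko mice (n = 3) carried a tamoxifen-inducible knockout of Ctcf, a chromatin-organising DNA-binding protein, in Treg cells, and the ctr mice (n = 3) had wild-type Ctcf in Treg cells. By these labels every other leukocyte, including the γδ T, CD8 T and NK cells in which most of the differences below were measured, carried no targeted deletion in either group. The Cre driver, the tamoxifen schedule, and the strain, sex and age of the mice are not given in the sources used here. The replicates are labelled biological.

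Interleukin-17A and interleukin-17F are cytokines of type 17 lymphocytes, a state that γδ T cells, helper T cells and innate lymphoid cells can all adopt and in which the nuclear receptor RORα takes part. Interleukin-23, made by myeloid cells, maintains the state through its receptor, and the cytokines act on epithelial and stromal cells, which answer with neutrophil-attracting chemokines. In mouse tumours, γδ T cells that use the Vγ6 or Vγ4 receptor chain are a known source of interleukin-17.

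Il17a and Il17f, the cytokine pair, are neighbours: Il17a lies on the plus strand at chr1:20730905-20734496 and Il17f on the minus strand at chr1:20777146-20790617 (GRCm38, GENCODE annotation), with 42649 bases between them. The other members lie apart from them. Il23r is at chr6:67422932-67491855 (minus), Il17re at chr6:113458484-113470758 (plus), Cd163l1 at chr7:140218267-140231145 (plus), Rora at chr9:68653786-69388246 (plus) and Il22 at chr10:118204942-118210047 (plus). The 250 bases before the RefSeq start of each cytokine of the pair are shown because most cko cells with Il17f also held Il17a. The RefSeq start of Il17f lies inside the GENCODE span given above, so its window falls within that span. Capitals mark AGGTCA, the half-site letters read by RORα and other nuclear receptors, on either strand (TGACCT where it lies on the other strand), and TGANTCA, the letters read by AP-1 factors.
Il17a, chr1:20730655-20730904, plus strand, GRCm38.p6: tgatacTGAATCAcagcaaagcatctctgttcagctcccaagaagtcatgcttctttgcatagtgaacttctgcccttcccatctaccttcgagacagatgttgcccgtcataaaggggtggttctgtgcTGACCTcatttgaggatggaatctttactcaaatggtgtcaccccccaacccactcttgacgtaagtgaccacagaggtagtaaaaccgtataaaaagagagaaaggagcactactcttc
Il17f, chr1:20784271-20784520, minus strand, GRCm38.p6: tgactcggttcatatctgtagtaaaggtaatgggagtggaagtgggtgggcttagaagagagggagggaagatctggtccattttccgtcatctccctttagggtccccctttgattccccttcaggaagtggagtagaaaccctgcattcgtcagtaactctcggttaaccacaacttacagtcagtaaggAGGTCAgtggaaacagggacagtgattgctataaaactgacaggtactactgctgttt
AGGTCA was found once before Il17a, once before Il17f and 2 times before Il23r, and not before the other 4 members. It occurs in 14.03% of 32817 RefSeq windows of the same length. TGANTCA was found once before Il17a and before no other member, against 6.75% of all windows. TTCNNNGAA, the letters read by STAT factors, was found before none of the 7, against 7.01% of all windows. The motifs do not overlap one another in these windows, and a match describes the letters only.

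The count matrices held 6530 to 7446 barcodes and 45322797 to 53473461 unique molecular identifiers (UMIs, 1 per captured transcript) per cko sample, and 6125 to 7577 barcodes and 54224947 to 55515267 UMIs per ctr sample. After filters, 18834 cko and 18506 ctr cells were kept. Both of the following facts bear on every comparison of the groups. First, cko replicates 1 and 3 shared 197 paired T cell receptor clonotypes, which held 82.0% and 69.8% of their paired cells, while every other pair of samples shared at most 3. Any 2 samples shared 41 to 81 cell barcodes, and cko replicates 1 and 3 shared 71. Main cko over ctr results are therefore also given with cko replicates 1 and 3 added together as 1 sample. Second, Ctcf itself, summed over Foxp3-positive CD4 T cells, was 68.6, 69.8 and 63.6 CPM (counts scaled to a common total per sum) in cko and 75.4, 80.5 and 108 CPM in ctr. These values rested on 29, 82 and 41 UMIs in cko and 81, 114 and 138 in ctr. The groups did not overlap, the difference was not tested, and the level in cko was not near 0. These 5′ counts do not show whether the deleted exons were read.

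Cells were assigned to classes by marker transcripts and receptor contigs, with no member gene in any gate. The γδ T gate (CD3 transcripts, Trdc, no TRA or TRB contig, no Cd4 or Cd8b1) held 104, 147 and 82 cells in cko replicates 1 to 3 and 31, 8 and 24 in ctr replicates 1 to 3. As a share of kept cells this was 1.80 ± 0.655% in cko and 0.335 ± 0.184% in ctr (SD, n = 3 each), with no overlap. The exact two-sided permutation p was 0.1, the smallest that 3 samples against 3 allow. CD4 T cells were 11.1 ± 1.90% in cko and 11.8 ± 1.68% in ctr, and CD8 T cells 33.9 ± 5.55% in cko and 22.0 ± 6.64% in ctr. NK cells were 3.35 ± 0.589% in cko and 6.82 ± 1.60% in ctr, with no overlap (exact p = 0.1).

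The γδ T gate was not equally pure in the groups. Cells in it with at least 2 UMIs of the NK markers Ncr1, Klrb1c, Klre1 and Eomes numbered 5, 1 and 10 in cko, and 15, 4 and 9 in ctr, which is 16 of 333 cko cells and 28 of 63 ctr cells. The summed level of the 7 NK markers in the gate was 94.2, 46.9 and 780 CPM in cko and 2707, 3098 and 3366 CPM in ctr. None of the 7 was at 0 in 5 of the samples, and 1 was at 0 in cko replicate 2. The 8 macrophage markers summed to 19.2 to 34.1 CPM in cko and 82.4 to 269 CPM in ctr, with 2 to 4 of them at 0 in each cko sample and 2 to 3 in each ctr sample. The part of these cells in the γδ T values was tested only by leaving out the NK-marker cells. Without the NK-marker cells the gate held 99, 146 and 72 cko cells and 16, 4 and 15 ctr cells, or 1.71 ± 0.720% of kept cells in cko and 0.185 ± 0.1002% in ctr. These counts still did not overlap (exact p = 0.1). The fitted cko over ctr changes of the members in γδ T cells are given below with and without the NK-marker cells. The fit without them kept ctr replicate 2 at 4 cells, under the minimum of 5 set for γδ T fits, so its values are less certain.

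Il17a, the lead cytokine of the axis, was found in more cells of each cko tumour than of any ctr tumour. In cko the γδ T gate held more positive cells than any other class. Cells with at least 1 UMI numbered 130, 156 and 105 in cko and 23, 3 and 41 in ctr. Per 1000 kept cells this was 21.0 ± 5.42 in cko and 3.43 ± 2.74 in ctr (SD, n = 3 each; exact p = 0.1). Positive cells held a median of 7 UMIs in cko and 6 UMIs in ctr. Of the positive cells, 51.4% were in the γδ T gate in cko, against 17.9% in ctr. Without NK-marker cells the gate held 74, 90 and 37 of the 130, 156 and 105 positive cells of cko replicates 1 to 3. Most positive cells of cko replicate 3 thus lay outside it. CD4 T cells held 7.42% of the positive cells in cko and 35.8% in ctr.

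**Figure D1:**
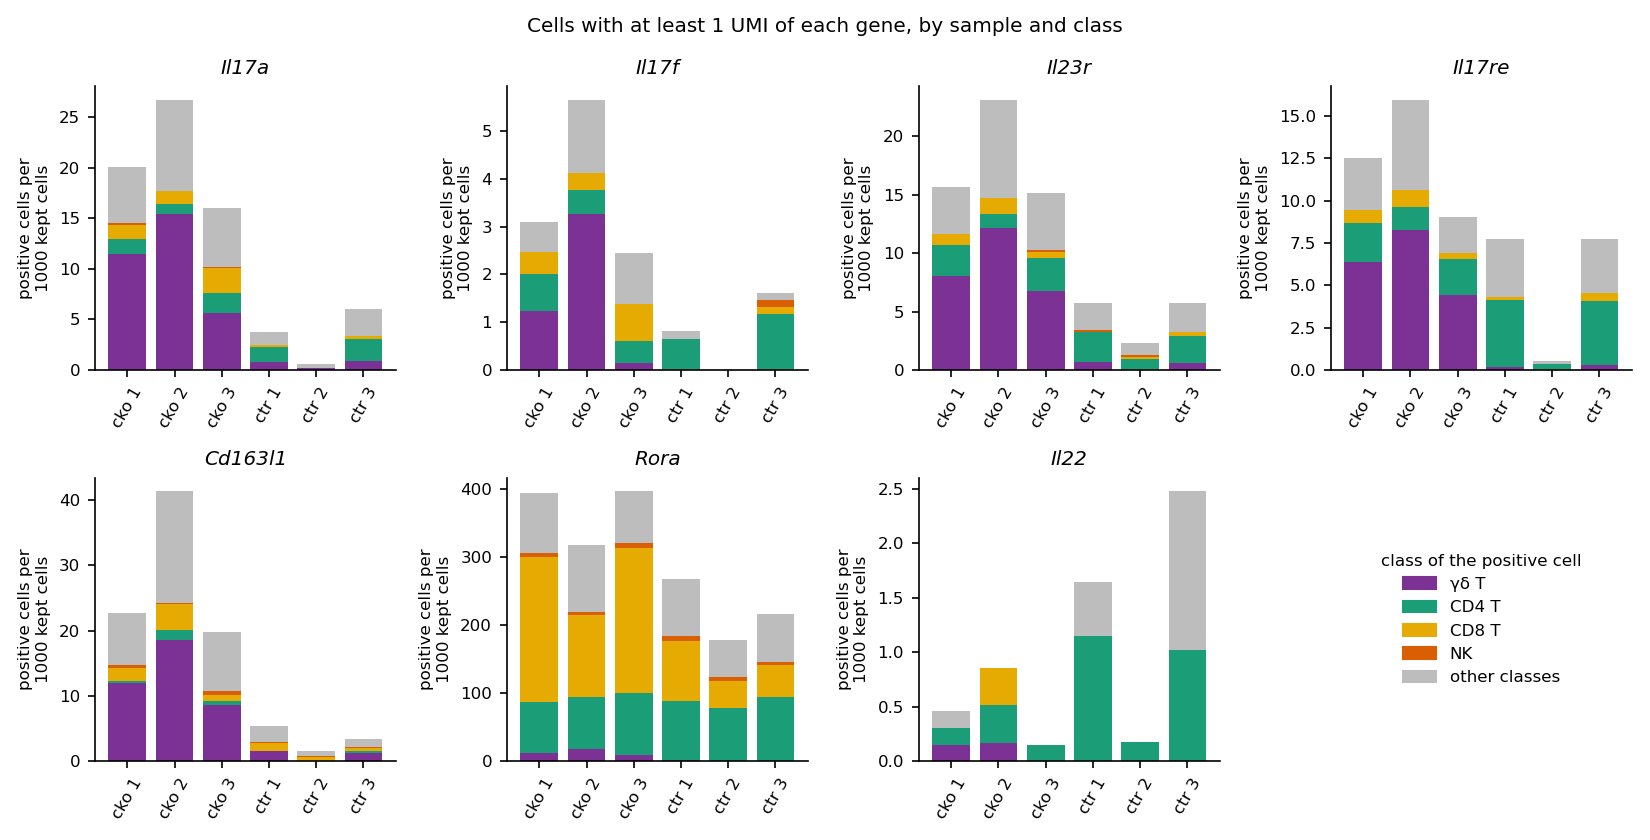
Cells with at least 1 UMI of each member per 1000 kept cells (y axis), for cko samples 1 to 3 and ctr samples 1 to 3 (x axis), with the bar split by the class of the positive cell. Each panel has its own y scale. For Il17a the cko bars stand at 20.1, 26.8 and 16.04 and the ctr bars at 3.78, 0.538 and 5.98. In each cko bar the γδ T part is larger than the CD4 T, CD8 T and NK parts. Cells of all remaining classes form 1 further part. For Il22 the tallest bar is that of ctr sample 3.

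Within the γδ T gate, Il17a was detected in 71.2%, 61.2% and 45.1% of cells in cko and in 16.1%, 12.5% and 25.0% in ctr. The mean share was 59.2 ± 13.1% in cko and 17.9 ± 6.43% in ctr (exact p = 0.1), and after each cell was thinned to 2000 UMIs it was 53.0 ± 13.2% in cko and 13.1 ± 13.0% in ctr. The lowest cko sample stood above the highest ctr sample. Without NK-marker cells the shares were 62.6 ± 11.7% in cko and 32.1 ± 7.53% in ctr, again without overlap (exact p = 0.1). The summed level was 4510, 1919 and 2100 CPM in cko γδ T cells and 518, 15.5 and 343 CPM in ctr γδ T cells. The fitted log2 fold change was 3.07, and 1.47 without NK-marker cells. Il17a entered this fit through the cko samples, so no call is given. The ctr value rests on 12 positive cells, and 1 of them gave the value of ctr replicate 2.

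Il17a-positive cells were a small share of the CD4 T, CD8 T and NK cells. CD4 T cells held 10, 6 and 13 in cko and 9, 0 and 15 in ctr, and their shares overlapped. Of the CD4 T cells positive for Il17a, 1 of 29 in cko and 0 of 24 in ctr carried Foxp3 transcripts. The 23 paired CD4 T cells with Il17a in cko belonged to 21 clonotypes and the 23 in ctr to 23, so no CD4 clone dominated. CD8 T cells held 9, 7 and 16 in cko and 1, 0 and 2 in ctr. Their share was 0.498% in cko and 0.0734% in ctr, against a background of 0.239% in cko and 0.0146% in ctr in myeloid or B cells, which should lack the transcript. Median depths were 7008 UMIs in cko CD8 T cells and 7507 UMIs in ctr CD8 T cells, and 6696.5 UMIs in cko myeloid or B cells and 7804.5 UMIs in ctr myeloid or B cells. In cko replicate 3, 11 of the 16 positive CD8 T cells belonged to the largest CD8 clonotype of that sample, and 10 of these 11 had 1 UMI. In ctr replicate 3, 206 of 236 CD8 UMIs came from 1 cell, and the fitted CD8 change, -0.62 on the log2 scale (adjusted p = 0.878), turned to 4.18 without that sample (adjusted p = 0.116). NK cells held 2 positive cells in cko and 0 in ctr, a cko share of 0.314%, which is near the myeloid background.

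CD3-positive cells without Cd4 or Cd8 transcripts that fell outside the γδ T gate held 22, 32 and 21 Il17a-positive cells in cko and 7, 0 and 10 in ctr. A TRA or TRB contig was found in 38.7% of these positive cells in cko, against 62.4% of the Il17a-negative cells of the same gate. In ctr the figures were 70.6% of positive and 77.5% of negative cells. Trdc was detected in 20 of the 75 positive cells in cko and in 1 of the 17 in ctr. This gate was shallow, with a median of 3311 UMIs per cell in cko and 3573.5 UMIs in ctr, so that a missing Trdc or contig was not tested further.

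Over the sums of all kept cells, 2 of the 7 members passed the threshold of 0.05, both higher in cko, where 2.36% of 14347 genes tested were called higher and 5.83% in either direction. These were Cd163l1, with a log2 fold change of 3.75 (SE 0.41, adjusted p = 0.0168), and Il23r, with 2.33 (SE 0.49, adjusted p = 0.0470). With cko replicates 1 and 3 added together neither passed (adjusted p = 0.0883 for Cd163l1 and 0.138 for Il23r), and the count over all genes dropped to 6. Leaving out 1 sample at a time ended the Cd163l1 call without ctr replicate 3 (adjusted p = 0.0812) and without cko replicate 1 (adjusted p = 0.102), and the Il23r call without any sample but ctr replicate 2 (adjusted p = 0.0743 to 0.161). Il17f was at 4.41 (SE 0.97, adjusted p = 0.0511), Il17a at 3.30 (SE 1.16, adjusted p = 0.142), Rora at 0.97 (SE 0.24, adjusted p = 0.065), Il17re at 1.31 (adjusted p = 0.311) and Il22 at -1.07 (adjusted p = 0.494). In the count of positive cells per 1000 kept cells, 6 of the 7 members did not overlap between the groups, all except Il22, and all 6 were higher in cko. Of 15999 genes with at least 20 positive cells, 5.99% did not overlap with cko higher and 31.9% in either direction. These sums mix the number of cells of each class with the level per cell.

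**Figure D2:**
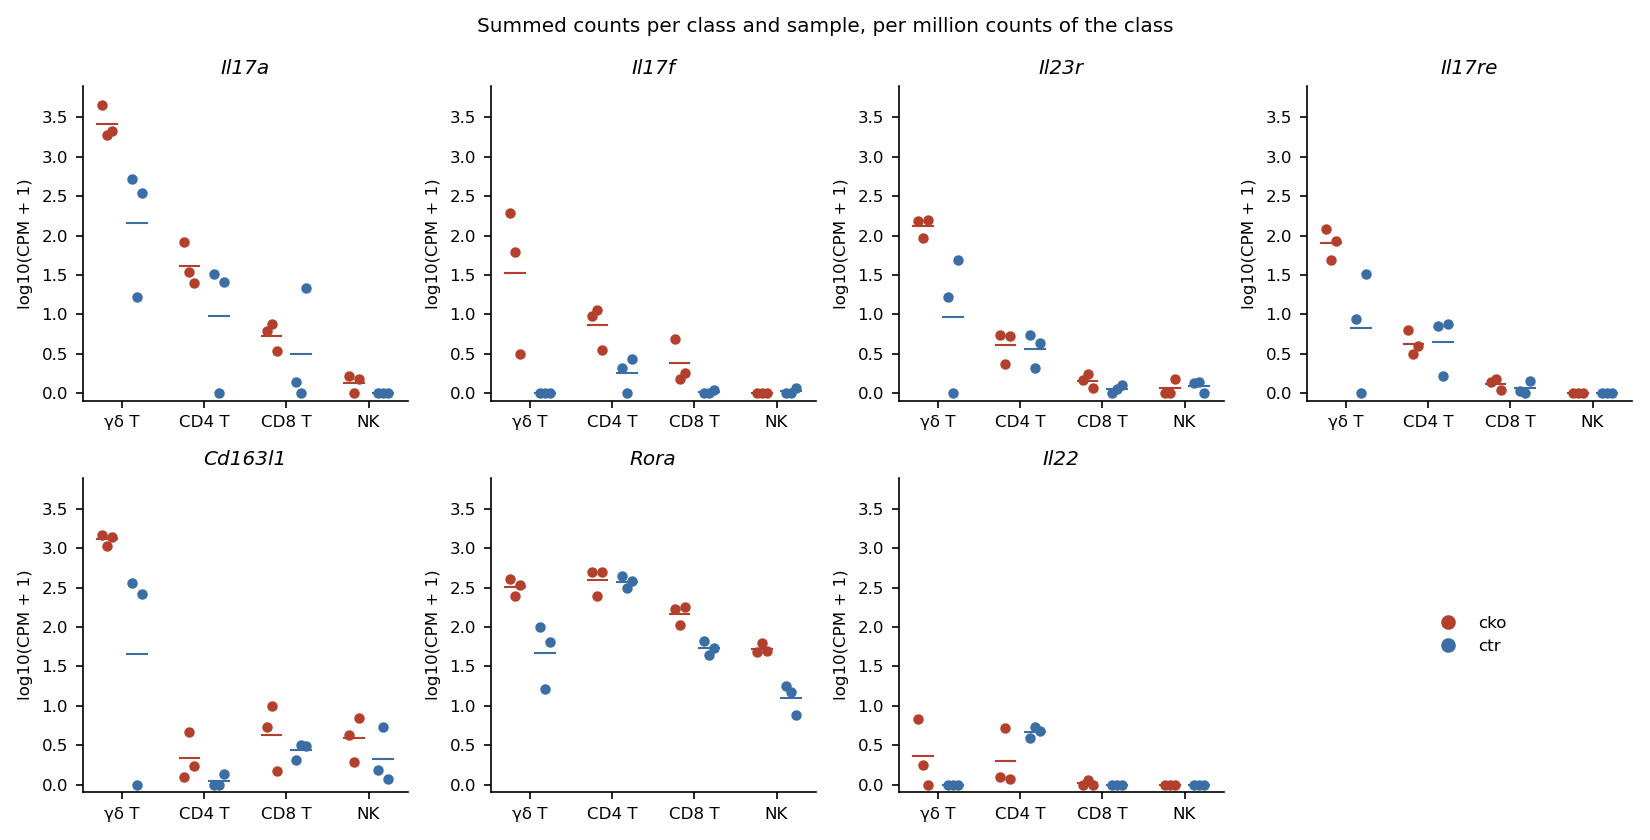
Level of each member in summed counts, as log10(CPM + 1), in γδ T, CD4 T, CD8 T and NK cells, with 1 point per sample (cko left, ctr right of each class) and a bar at the mean of the log values. Il17a, Il23r, Il17re and Cd163l1 have their highest mean in γδ T cells in both groups, and Il17f in cko but not in ctr, where its γδ T points lie at 0. Rora stands high in CD4 T cells of both groups and is higher in cko than in ctr in the other 3 classes.

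Il17f, the second cytokine of the pair, followed the same order in fewer cells. Positive cells numbered 20, 33 and 16 in cko and 5, 0 and 11 in ctr, or 3.73 ± 1.70 per 1000 kept cells in cko and 0.809 ± 0.803 in ctr (exact p = 0.1). The γδ T gate held 8, 19 and 1 of them in cko, and none of its 31, 8 and 24 cells in ctr. A count of 0 in those samples allows up to 9.68%, 37.5% and 12.5% of cells with a UMI, which does not limit the share of cells that express the gene. Summed over the group, γδ T cells held 182 Il17f UMIs in cko and 0 in ctr. A floor of 3 counts over the ctr group stands at 5.89 CPM. The level of cko replicate 3 lay below it, so no fold is given. Without NK-marker cells none of the Il17f UMIs was lost. The share of positive cells without them was 7.49 ± 5.83% in cko and 0 in ctr. The cko samples differed widely, with 194, 61.6 and 2.13 CPM. In ctr, 12 of the 16 positive cells were CD4 T cells, against 11 of 69 in cko. The CD4 level was 8.53, 10.2 and 2.55 CPM in cko and 1.10, 0 and 1.74 CPM in ctr, which did not overlap. The fitted CD4 change was 2.78. Il17f entered that fit through the cko samples, so no call is given. Il17f-positive cells were mostly also positive for Il17a: the 50 cells with both made up 72.5% of Il17f-positive and 12.8% of Il17a-positive cells in cko. In ctr the 7 cells with both made up 43.8% of Il17f-positive and 10.4% of Il17a-positive cells.

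Il22, a cytokine of the interleukin-10 family that acts on epithelia and is often made by type 17 cells, was rare in both groups and did not share the pattern of Il17a. Positive cells numbered 3, 5 and 1 in cko and 10, 1 and 17 in ctr. Their groups overlapped. CD4 T cells held 1, 2 and 1 of them in cko and 7, 1 and 7 in ctr, and 1 CD4 T cell gave 25 of the 29 Il22 UMIs of cko replicate 2, while 1 gave all 20 of ctr replicate 2. The CD4 change of -1.12 missed the threshold (adjusted p = 0.614). Without cko replicate 2 it was -3.97, in a fit that Il22 entered through the ctr samples, so no call is given. γδ T cells held 4 Il22 UMIs in 2 cells in cko and 0 in ctr, where the level in cko lay under the floor that 3 counts set in ctr, and no fold is given. No Il22 UMI was found in NK cells of either group, where a count of 0 allows 1.16% to 1.85% of cells with a UMI per cko sample and 0.581% to 1.08% per ctr sample.

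Il23r encodes the receptor chain specific for interleukin-23. It was found in 101, 135 and 99 cells in cko and 35, 13 and 39 in ctr, or 17.97 ± 4.505 per 1000 kept cells in cko and 4.59 ± 1.96 in ctr (exact p = 0.1). Within γδ T cells it was detected in 50.7 ± 2.74% of cells in cko and 9.86 ± 8.74% in ctr, and at 2000 UMIs per cell in 23.1 ± 6.12% in cko and 6.23 ± 5.44% in ctr. The groups did not overlap in either measure, and without NK-marker cells the shares were 54.1 ± 6.39% in cko and 17.2 ± 14.9% in ctr. The level was 154, 93.1 and 158 CPM in cko and 15.7, 0 and 47.5 CPM in ctr. In the γδ T fit 3.37% of 4694 genes tested were called higher, 2.11% lower and 5.48% in either direction. The 5 members fitted there were kept through the cko samples, where their levels were high, so their calls are not given. The fitted Il23r change was 2.31. It was 2.23 with cko replicates 1 and 3 added together and 0.88 without NK-marker cells.

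Il23r in CD4 T cells showed no such difference, with 17, 7 and 19 positive cells in cko and 16, 5 and 16 in ctr and a log2 fold change of 0.15 (adjusted p = 0.945). CD4 T cells made up 12.8% of Il23r-positive cells in cko and 42.5% in ctr. In Foxp3-positive CD4 T cells, where Ctcf was targeted, Il23r was detected in 7 of 239 cells in cko and 2 of 450 in ctr, a difference that was not tested over samples.

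Il17re encodes the interleukin-17 receptor chain that binds interleukin-17C and is itself carried by type 17 lymphocytes. Positive cells numbered 81, 93 and 59 in cko and 47, 3 and 53 in ctr, or 12.5 ± 3.47 per 1000 kept cells in cko and 5.33 ± 4.15 in ctr (exact p = 0.1). In γδ T cells it was detected in 35.8 ± 3.41% of cells in cko and 3.85 ± 4.20% in ctr, and without NK-marker cells in 38.2 ± 4.64% in cko and 6.53 ± 6.67% in ctr. It was found in CD4 T cells in 15, 8 and 14 cells in cko and 24, 2 and 26 in ctr. The γδ T level was 121, 47.7 and 83.1 CPM in cko and 7.85, 0 and 31.7 CPM in ctr, without overlap. The fitted γδ T change was 2.28, and 0.84 without NK-marker cells. The CD4 change was -0.47 (adjusted p = 0.82). The difference between these changes, in 1 fit over the 4 classes chosen after the data were seen, was 3.11 on the log2 scale. In that fit 6.28% of 11026 genes were called. The difference was 1.93 without NK-marker cells and 2.39 without ctr replicate 1. Il17re is high in cko γδ T cells, so no call is given. No UMI of Il17re was found in NK cells of either group.

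Cd163l1, which encodes a scavenger receptor of the γδ T lineage also known as Scart1, had the highest share of positive γδ T cells of any member but Rora. It was found in 147, 241 and 130 cells in cko and 33, 9 and 23 in ctr, or 28.0 ± 11.7 per 1000 kept cells in cko and 3.47 ± 1.91 in ctr (exact p = 0.1). In the γδ T gate it was detected in 72.7 ± 2.83% of cells in cko and 23.3 ± 20.3% in ctr, where ctr replicate 2 had none in 8 cells. Without NK-marker cells the shares were 77.3 ± 2.90% in cko and 40.8 ± 35.4% in ctr. The level was 1485, 1055 and 1405 CPM in cko and 365, 0 and 264 CPM in ctr. The fitted change was 2.40, and 0.85 without NK-marker cells. Among CD8 T cells 0.654% were positive in cko and 0.342% in ctr, against 0.335% of cko and 0.0292% of ctr myeloid or B cells.

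**Figure D3:**
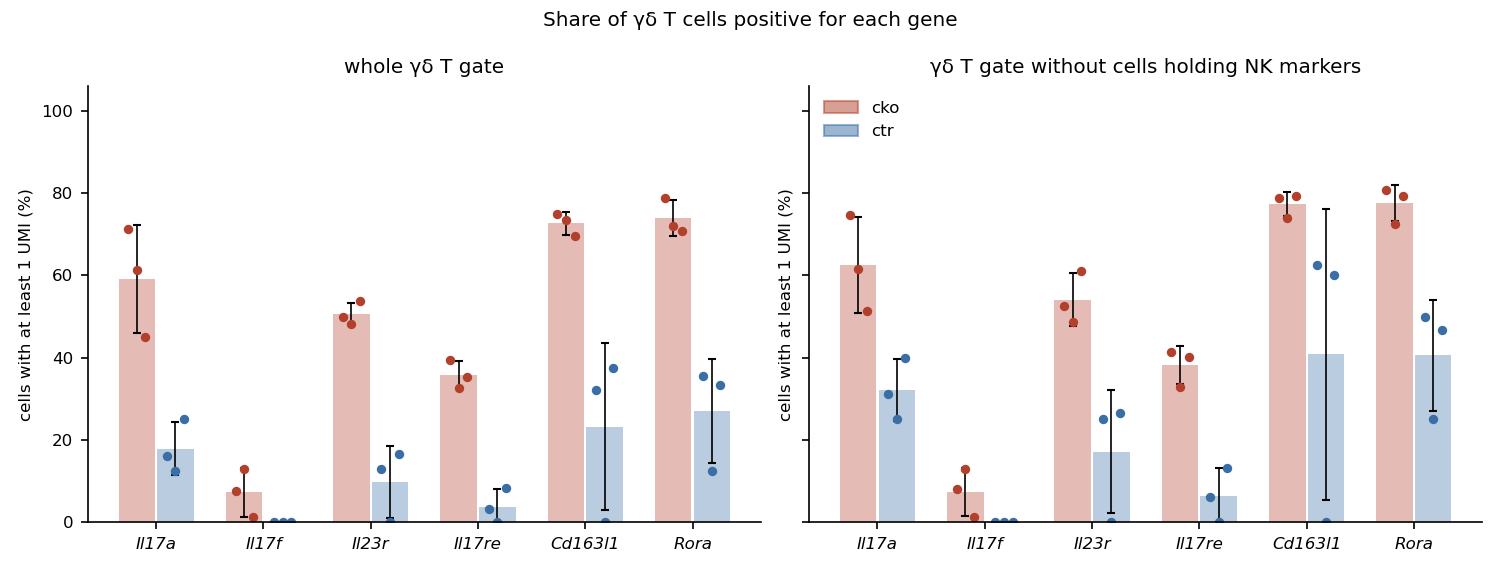
Share of γδ T cells with at least 1 UMI of each member (y axis, percent), with the whole gate on the left and the gate without cells holding 2 or more NK marker UMIs on the right. Points are samples, bars are means and whiskers are SD (n = 3 each). Removing the NK-marker cells raised the ctr mean of Il17a to 32.1%, against 62.6% in cko. How often the cko and ctr points of other genes lie apart in this gate, with its few ctr cells, was not computed.

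Within γδ T cells, the receptor chain divided the members. Cells with Tcrg-V6 transcripts and neither Tcrg-V4 nor Tcrg-V1 numbered 180 in cko and 14 in ctr, and those with Tcrg-V4 alone 60 in cko and 8 in ctr. In cko, Cd163l1 was detected in 98.3%, 100% and 100% of Tcrg-V6 cells and in 28.6%, 10.7% and 9.09% of Tcrg-V4 cells. Its relative 5830411N06Rik, also known as Scart2, had the opposite order, with 0 positive Tcrg-V6 cells in each cko sample and 95.2%, 100% and 72.7% of Tcrg-V4 cells positive. The reads of these related genes were thus kept apart in the counting. Il17f was detected in 6.67%, 6.49% and 0% of Tcrg-V6 cells and in 19.0%, 35.7% and 9.09% of Tcrg-V4 cells, higher in Tcrg-V4 cells in 3 of 3 samples. In cko replicate 3 this rested on 1 of 11 Tcrg-V4 cells, and in cko replicate 1 on 4 of 21. Il17a did not divide in this way, with 78.3%, 61.0% and 58.1% of Tcrg-V6 cells and 71.4%, 78.6% and 36.4% of Tcrg-V4 cells positive. The median depth was 4942 UMIs in Tcrg-V6 cells and 4951 UMIs in Tcrg-V4 cells of cko. These are descriptions of 3 samples, with no test.

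In ctr the Tcrg-V6 cells resembled those of cko in Cd163l1, which was detected in 14 of 14, and Il17a was detected in 57.1% of them, against 66.1% of the cko Tcrg-V6 cells. Rora was detected in 82.2% of cko and 71.4% of ctr Tcrg-V6 cells, Il23r in 59.4% of cko and 28.6% of ctr Tcrg-V6 cells, and Il17re in 63 of 180 cko and 3 of 14 ctr Tcrg-V6 cells. None of the 8 ctr Tcrg-V4 cells held Il17a or Cd163l1, and 1 held Il23r. Tcrg-V6 cells made up 54.1% of the gate in cko and 22.2% in ctr, where 46.0% of cells had none of the 3 V transcripts, against 11.4% in cko. With 14 and 8 ctr cells from 3 samples, cko and ctr cells of 1 V type were not compared by a test.

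**Figure D4:**
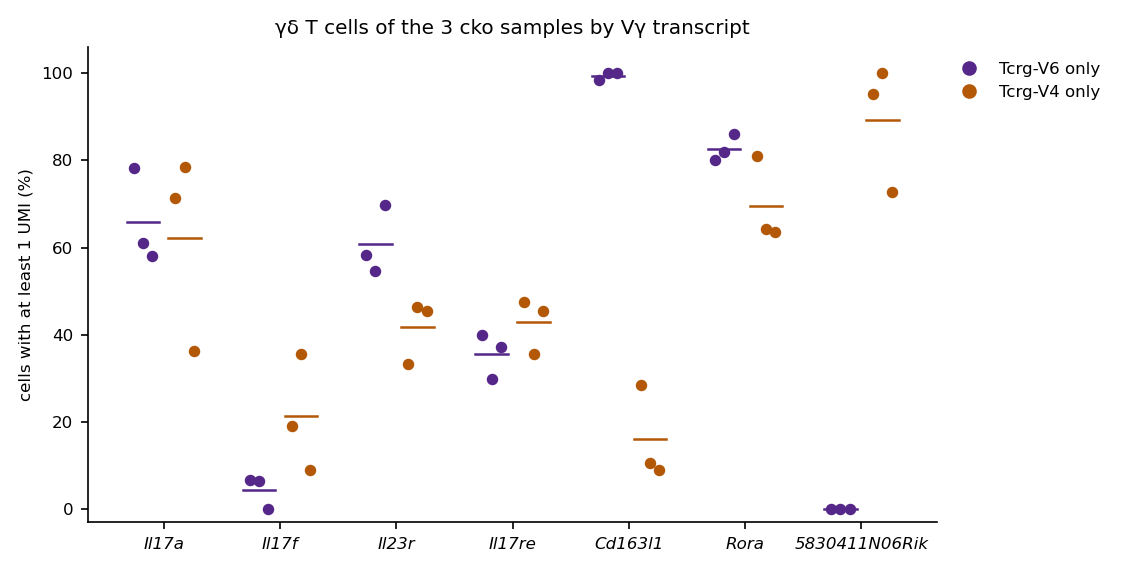
Share of γδ T cells of the cko samples with at least 1 UMI of each gene (y axis, percent), for cells with Tcrg-V6 transcripts alone and Tcrg-V4 transcripts alone. Points are the 3 cko samples and bars their means. Cd163l1 lies at 98.3% to 100% in Tcrg-V6 cells and at 9.09% to 28.6% in Tcrg-V4 cells, 5830411N06Rik lies the other way round, and Il17a overlaps.

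The members were also counted together in single γδ T cells, as a description with no test. Of the 5 members detected in many γδ T cells (Il17a, Il23r, Il17re, Cd163l1 and Rora), 3 or more were present in 226 of 333 cko cells and 12 of 63 ctr cells, none was present in 21 cko cells and 36 ctr cells, and all 5 were present in 33 cko cells and 0 ctr cells. Without NK-marker cells, 3 or more were present in 226 of 317 cko cells and 12 of 35 ctr cells, and none in 8 cko cells and 12 ctr cells. Over all classes, 251 cells held both Il17a and Cd163l1 in cko, which is 64.2% of Il17a-positive and 48.5% of Cd163l1-positive cells. In ctr 18 cells held both, which is 26.9% of Il17a-positive and 27.7% of Cd163l1-positive cells.

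Classes were compared in sums over all 6 samples with the sample as a block. Against CD4 T cells, 8.91% of 11026 genes were called higher in γδ T cells, 11.7% lower and 20.6% in either direction. The log2 fold changes of γδ T over CD4 T were 5.43 for Il17a, 4.57 for Il23r and 3.64 for Il17re. For these members and Il17f the CD4 T sums did not reach the filter on low counts in all 6 samples, so no calls are given. Il17f was at 2.86, but its level was higher in γδ T than in CD4 T cells in cko replicates 1 and 2 only. In cko replicate 3 it was 2.13 CPM in γδ T cells, against 2.55 CPM in CD4 T cells, and in ctr it was 0 in every γδ T sum. Rora was lower in γδ T cells, at -1.26 (adjusted p = 0.0246), and at -0.78 without NK-marker cells (adjusted p = 0.14). Leaving out any 1 ctr sample also ended that call (adjusted p = 0.0717 to 0.111).

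Against CD8 T cells, 9.88% of 11026 genes were called higher in γδ T cells and 20.9% in either direction. Il17a was at 8.07 and Cd163l1 at 7.91, both without a call. Rora was at 0.90 (adjusted p = 0.0984), and at 1.33 without NK-marker cells (adjusted p = 0.00777). Against NK cells, 10.9% were called higher and 22.3% in either direction, and Rora was at 2.78 (adjusted p = 0.000107). Members other than Rora were too rare in the class set against γδ T cells to be kept by that class alone, so their calls are not given. NK cells held 2 UMIs of Il17a, 1 of Il17f and 0 of Il17re over all samples. Il22 was not tested between classes.

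Rora encodes RORα, a nuclear receptor that acts in type 17 cells but is also found in other T cells and innate lymphoid cells, and in these data it was the only member in more than 1000 cells of either group. It was detected in 2546, 1856 and 2602 cells in cko and 1630, 999 and 1483 in ctr. In cko the order of levels was CD4 T (412 ± 145 CPM), γδ T (333 ± 84.1 CPM), CD8 T (151 ± 40.8 CPM) and NK (52.7 ± 8.11 CPM), and in ctr CD4 T (379 ± 66.1 CPM), γδ T (59.0 ± 41.5 CPM), CD8 T (54.1 ± 10.9 CPM) and NK (12.5 ± 5.20 CPM). In cko the levels of CD4 T and γδ T cells overlapped. In ctr those of γδ T and CD8 T cells overlapped. Myeloid or B cells, as a background, were positive in 3.32% of cells in cko and 3.49% in ctr.

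In CD8 T cells Rora was detected in 55.7%, 43.6% and 59.6% of cells in cko and in 30.2%, 25.8% and 22.2% in ctr, so that every cko sample stood above every ctr sample. At 2000 UMIs per cell the shares were 23.7 ± 5.58% in cko and 9.37 ± 2.31% in ctr (exact p = 0.1). The level was 171, 104 and 178 CPM in cko and 65.2, 43.5 and 53.5 CPM in ctr. Of 3 members tested in CD8 T cells Rora alone passed the threshold, where 0.997% of 11837 genes were called higher, 0.887% lower and 1.88% in either direction, with a log2 fold change of 1.44 (SE 0.24, adjusted p = 0.0375). With cko replicates 1 and 3 added together it was 1.33 (adjusted p = 0.163), and the call was also lost on leaving out any sample but cko replicate 2, with changes of 1.31 to 1.61.

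The CD8 shares of Rora were also read outside the clonotypes that cko replicates 1 and 3 shared. Among paired CD8 T cells outside those clonotypes, Rora was detected in 41.4%, 45.4% and 54.2% of cells in cko and in 30.9%, 26.3% and 22.7% in ctr, or 47.0 ± 6.57% in cko and 26.6 ± 4.10% in ctr (exact p = 0.1). In clonotypes of at least 3 cells the shares were 59.6%, 48.6% and 62.2% in cko and 30.8%, 24.1% and 21.5% in ctr. In clonotypes seen in 1 cell they were 39.4%, 24.5% and 50.9% in cko and 32.6%, 35.8% and 27.3% in ctr, which overlapped (exact p = 0.5). In cko each sample had a higher share in clonotypes of at least 3 cells than in those of 1 cell, and in ctr each had a lower one.

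In NK cells Rora was detected in 17.7%, 15.4% and 19.3% of cells in cko and in 9.11%, 10.4% and 5.23% in ctr, although cko NK cells were shallower, with a median of 5139 UMIs against 10060 UMIs in ctr. At 2000 UMIs per cell the shares were 7.34 ± 0.866% in cko and 2.37 ± 0.804% in ctr (exact p = 0.1). It was the only member tested there and passed the threshold, at 1.95 (SE 0.31, adjusted p = 0.00905), where 3.93% of 9426 genes were called higher and 7.56% in either direction. The call held with cko replicates 1 and 3 added together (1.99, adjusted p = 0.0448) and was lost under stricter gates (1.67, adjusted p = 0.0908) and without cko replicate 3 (2.02, adjusted p = 0.0533). Beside it, the γδ constant segment Tcrg-C4 was at 30.6 ± 3.19 CPM in cko and 7.35 ± 3.79 CPM in ctr NK cells (1.97, adjusted p = 0.0134), the only one of 4 γδ segments tested there that passed, while Trdc was at 29.6 ± 6.58 CPM in cko and 39.9 ± 4.79 CPM in ctr. The part of γδ T cells in the NK values was not tested.

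In γδ T cells Rora was at 411, 244 and 343 CPM in cko and 98.1, 15.5 and 63.3 CPM in ctr, with a fitted log2 fold change of 2.19. The change was 2.12 with cko replicates 1 and 3 added together, 0.78 without NK-marker cells and 2.16 without ctr replicate 3. As Rora entered that fit through the cko samples, no call is given. In CD4 T cells the groups overlapped, with 80.8%, 58.7% and 83.6% of cells positive in cko and 78.4%, 74.3% and 68.8% in ctr, and a change of 0.11 (adjusted p = 0.915). It was detected in 79.9% of cko and 82.7% of ctr Foxp3-positive CD4 T cells. Among the 6 members fitted in CD4 T cells, Il17f is given without a call and none of the others passed the threshold, where 1.17% of 10717 genes were called. At an unadjusted p under 0.05 there were 1523 genes in that fit. By DESeq2 the Il17f change was 2.85, also without a call.

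The change in Rora differed between classes, by tests added after the data were seen. The cko over ctr change was larger in CD8 T than in CD4 T cells by 1.36 (SE 0.30, adjusted p = 0.0411; 1.2% of 11026 genes called) and larger in NK than in CD4 T cells by 1.93 (SE 0.37, adjusted p = 0.0115; 3.39% called). With cko replicates 1 and 3 added together only the NK difference passed (adjusted p = 0.163 for CD8 T and 0.0392 for NK). It was larger in γδ T than in CD4 T cells by 2.26, and by 1.07 without NK-marker cells. Leaving out 1 sample at a time ended the CD8 T difference except without cko replicate 2 (adjusted p = 0.0854 to 0.188). It ended the NK difference without ctr replicate 1 (adjusted p = 0.0548) or ctr replicate 3 (adjusted p = 0.0627). The CD8 T and NK changes differed by -0.57, which missed the threshold (adjusted p = 0.533).

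**Figure D5:**
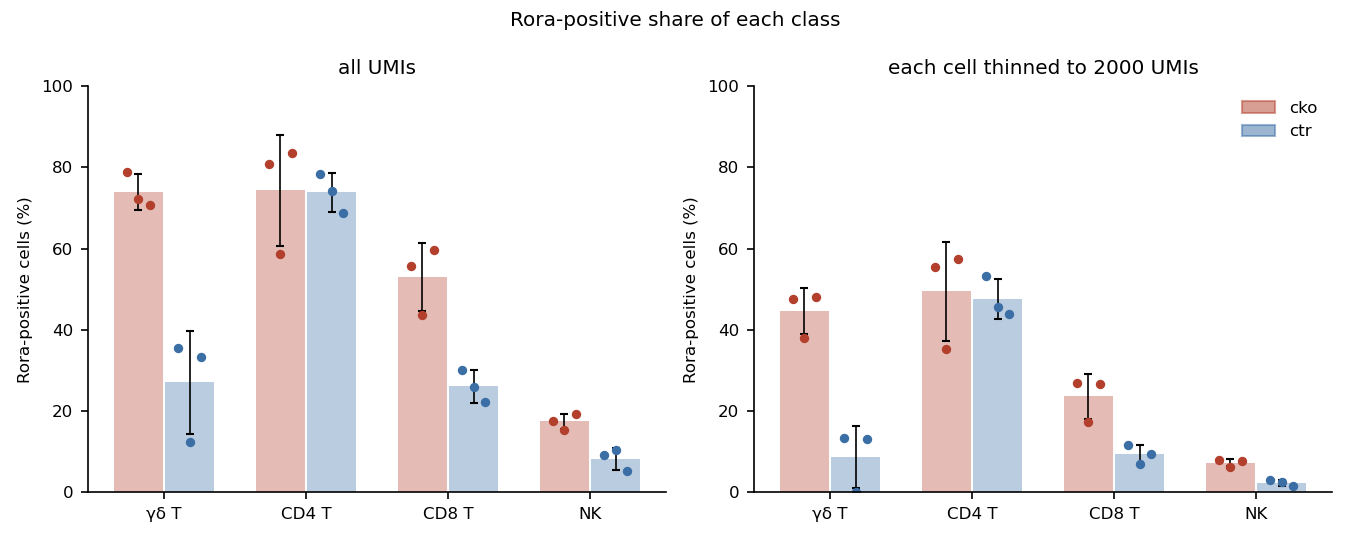
Share of cells with at least 1 UMI of Rora (y axis, percent) in 4 classes, from all UMIs on the left and after each cell was thinned to 2000 UMIs on the right. Points are samples, bars are means and whiskers are SD (n = 3 each). The cko points lie above the ctr points in γδ T, CD8 T and NK cells and overlap with them in CD4 T cells in both panels.

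Among CD4 T cells, the number of cells with a type 17 cytokine or receptor transcript overlapped between the groups. Cells with at least 1 UMI of Il17a, Il17f, Il23r, Il17re or Il22 numbered 39, 18 and 46 in cko and 43, 8 and 48 in ctr, or 6.52%, 2.37% and 6.40% of CD4 T cells in cko and 6.32%, 1.37% and 5.13% in ctr. The groups overlapped, and in each group replicate 2 was lowest. They belonged to 28, 11 and 38 clonotypes in cko and 35, 6 and 39 in ctr, and 2, 1 and 6 of the cells in cko and 1, 1 and 2 in ctr carried Foxp3 transcripts.

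Other genes of the pathway were read from lists. Genes of these lists low in ctr γδ T cells were kept in the γδ T fit through cko, so calls and list medians are not given there. In that fit 3.37% of genes were called higher. Sox13, a fate factor of γδ T cells, was at 120 ± 28.8 CPM in cko and 13.1 ± 4.52 CPM in ctr, a change of 3.21. Blk, a kinase needed by type 17 γδ T cells, changed by 3.92, and Maf, a regulator of type 17 γδ T cells, by 2.49. Without NK-marker cells the changes were 2.46 for Blk, 1.75 for Sox13 and 1.21 for Maf.

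The type 17 surface and effector genes were read in γδ T cells in the same way, without calls. Areg, an epidermal growth factor ligand, was at 350 ± 73.6 CPM in cko and 10.4 ± 9.04 CPM in ctr, a change of 5.30. Cxcr6, a chemokine receptor of tissue T cells, changed by 2.79, and Il1r1, the interleukin-1 receptor, by 2.52. Ccr6, a chemokine receptor of type 17 cells, was at 61.5, 38.5 and 70.4 CPM in cko, and no UMI of it was found in the 63 ctr γδ T cells. Without NK-marker cells the changes were 4.33 for Areg, 1.32 for Cxcr6 and 1.04 for Il1r1. Of the γδ receptor segments the constant segment Tcrg-C1 changed by 1.52, and by 0.10 without NK-marker cells.

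Outside the γδ T gate the lists were read in the same way. Over all kept cells, where 2.36% of genes were called higher and 3.47% lower, none of the list genes described next passed with cko replicates 1 and 3 added together, without cko replicate 1 or without ctr replicate 3. Of 13 type 17 factors 5 were higher with all samples, led by Sox13 (4.19, adjusted p = 0.0166) and Blk (4.46, adjusted p = 0.0168). Of 20 surface and effector genes 5 were higher and 3 lower, and the lower ones were Ramp1 (-0.90), Tmem176a (-1.22) and Tmem176b (-1.50), of which the Tmem176 genes are also expressed by myeloid cells. Myeloid or B cells were 22.0 ± 4.38% of kept cells in cko and 37.5 ± 11.3% in ctr, and the part of that share in these values was not tested. Of 7 inducers 1 passed, Il1a (0.75, adjusted p = 0.0347). Il23a, the specific subunit of interleukin-23, was at 1.16 (adjusted p = 0.0565) and Il1b at 0.12 (adjusted p = 0.814). Of 12 interleukin-17 target genes 1 passed, the protease gene Mmp9 (1.55, adjusted p = 0.0166), and none of 5 receptor chains did, with the shared receptor Il17ra at 0.28 (adjusted p = 0.0842). In NK cells, where 3.93% of genes were called higher, 4 of 7 type 17 factors were higher, Hif1a, Runx1, Ahr and Maf, and 1 of 8 with cko replicates 1 and 3 added together. In CD4 T cells 1 of 9 was higher, Batf (0.78, adjusted p = 0.0415), and in CD8 T cells none of 8. In CD8 T cells Il17ra was higher, at 0.66 (adjusted p = 0.0204). Neither Batf nor Il17ra passed with cko replicates 1 and 3 added together (adjusted p = 0.169 and 0.0868).

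Of the 8 genes whose levels were most like those of Il17a, by Pearson's r of log2(CPM + 1) over 36 sums of 6 classes in 6 samples and among 15381 genes, 7 are given here: Il17re (0.931), Il1r1 (0.896), Il23r (0.877), Tcrg-C1 (0.876), Gm9961 (0.875), Adam12 (0.864) and A130023I24Rik (0.863). Il17re and Il23r are members. Of the other members Cd163l1 ranked 15 (0.830), Il17f ranked 62 (0.723), Rora ranked 920 (0.392) and Il22 ranked 971 (0.383). The sums of 1 sample share its library, and these values are a description across sums and not a test.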

How the data were processed

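The authors deposited UMI counts, not normalised, for each gene and barcode (Chromium 5′ libraries with V(D)J enrichment, per the labels' protocols; Cell Ranger 7.0.0 on GRCm38, per the submitters' processing notes), and UMI counts of assembled receptor contigs. The matrices hold barcodes already called as cells. Cells with at least 300 genes, 500 UMIs and at most 10% mitochondrial counts were kept. Scrublet's automatic threshold marked 168 of 41679 barcodes (0.403%), which is below a usable rate, and the highest scores were instead removed at 0.8% per 1000 barcodes (2084 cells). Free RNA was not corrected. Classes were gated in order: myeloid or B (8 markers above 0.3% of UMIs), then CD3-positive cells (at least 2 CD3 UMIs) by Trdc, Cd4, Cd8a, Cd8b1 and contigs, then NK. Counts were summed per sample and class and compared with edgeR 4.0.16 (quasi-likelihood test, TMM, filterByExpr, Benjamini-Hochberg adjustment over all genes of a fit, threshold 0.05), where each sample held at least 20 cells of a class (5 for γδ T), and DESeq2 1.42.0 was an alternative. Il17f and Il22 were not tested in γδ T cells, Cd163l1 not in CD4 T cells, all but Il17a, Cd163l1 and Rora not in CD8 T cells, and all but Rora not in NK cells, because their counts were too low. The fits were tested on simulated data. Log2 fold changes are cko over ctr or γδ T over the other class. Genes that the filter on low counts kept only through the group where they are high have changes but no calls. This held for the members and most list genes in γδ T cells. In CD4 T cells it held for Il17f, and for Il22 without cko replicate 2. Between classes, members not kept by the class set against γδ T cells alone were treated in the same way. For single values the test was an exact permutation of the sample labels, two-sided, whose smallest p for groups of 3 is 0.1. Intervals and limits of 3 counts for a count of 0 cover counting error only. The members, lists and gates were chosen with earlier results of these data known. All 7 members are named, list genes by count with up to 6 of the smallest adjusted p, and Ccr6, Il1r1, Il23a, Il1b and Il17ra whatever their result. Some other ligands of the family (Il17b, Il17c, Il17d, Il25) were too low to be tested in these fits. The values of 1 further listed gene are not reported here.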

Additional observations from a re-analysis of the deposited data

Results flagged for a closer look

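The cko over ctr change of Rora differed between lymphocyte classes by a test of the difference itself, in 1 edgeR fit over 4 classes that was chosen after the data were seen. Against the CD4 T change it was larger by 1.36 on the log2 scale in CD8 T cells, by 1.93 in NK cells and by 2.26 in γδ T cells. Rora CPM averaged 151 in cko and 54.1 in ctr CD8 T cells, 52.7 in cko and 12.5 in ctr NK cells, and 412 in cko and 379 in ctr CD4 T cells. The CD8 T difference did not pass with cko replicates 1 and 3 added together (adjusted p = 0.163), and the γδ T difference did not pass without the cells that carried NK markers (adjusted p = 0.32).

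The fitted cko over ctr change of Il17re was larger in γδ T than in CD4 T cells by 3.11 on the log2 scale in the same edgeR fit. Il17re is high in cko γδ T cells, so no call is given. The difference was 1.93 without the NK-marker cells and did not pass there (adjusted p = 0.223). Beside these values, NK-marker cells made up 16 of 333 cko and 28 of 63 ctr cells of the γδ T gate.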

How the results depend on the processing

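Of 448 recomputed member values 389 kept their direction and side of the threshold, 35 lost a call, 13 gained one and 11 changed sign. Of 92 counts of called genes 52 stayed within 1.5 times the first count. The first counts were 836 genes for all kept cells, 257 for γδ T, 125 for CD4 T, 223 for CD8 T and 713 for NK. DESeq2 called 2290 for all kept cells, 331 for CD4 T, 576 for CD8 T and 437 for NK. With cko replicates 1 and 3 added together 6, 131, 19, 25 and 287 were called for all kept cells, γδ T, CD4 T, CD8 T and NK. Without a filter on low counts 621 were called for γδ T, 231 for CD4 T, 353 for CD8 T and 1398 for NK. Stricter gates called 228 for NK, and the γδ T gate without NK-marker cells called 53. Leaving out 1 sample at a time gave 0 to 761 for all kept cells, 34 to 619 for γδ T, 23 to 436 for CD4 T, 6 to 656 for CD8 T, 179 to 700 for NK and 1631 to 2424 for γδ T over NK. The causes were not tested.

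With the replicate number as a block, edgeR called 0 genes for all kept cells, against 3140 at an unadjusted p under 0.05 and 2290 by DESeq2 without the block. The numbers do not pair the samples. With the block the change of Il17re in γδ T cells was 2.49, and Cd163l1 and Il23r over all kept cells did not pass (adjusted p = 0.0765 and 0.156).

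Changes of sign were found in values that had not passed. Il17a in CD8 T cells was at 0.75 with the replicate block, 0.87 with doublets kept, 1.76 under stricter gates and -1.23 to 4.18 with 1 sample left out. Rora in CD4 T cells was at -0.053 with cko replicates 1 and 3 added together and -0.069 to 0.38 with 1 sample left out, and Il23r in CD4 T cells at -0.22 to 0.58. The CD4 T share of kept cells, cko minus ctr, was 0.0871 percentage points under stricter gates and -1.65 to 0.272 with 1 sample left out. Stricter gates were not run for γδ T fits, because ctr replicate 2 then held 4 cells, under the minimum of 5. The gate without NK-marker cells also left ctr replicate 2 with 4 cells, and it was fitted all the same. With 31, 8 and 24 cells, the ctr γδ T samples set the precision of every γδ T value.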
